A study of Homo sapiens with 6 samples.

Results

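The S100, SPRR and cornified envelope genes were followed on Affymetrix arrays of 76N, a cell line of normal mammary epithelium from human breast, in 3 samples given a control siRNA and 3 given an Ecd siRNA, with 1 array each. ECD encodes the human counterpart of the fly protein ecdysoneless, a regulator of the cell cycle. All 6 samples were grown in DFCI-1 medium and received an siRNA. The labels call the 3 samples of each group biological replicates and do not say whether they came from separate cultures, so p-values measure the spread between these samples, which may be technical. The siRNA sequences, their dose and the time of harvest are not in the labels. The members were every probe set whose single gene symbol starts with S100A, SPRR or LCE, or is IVL, FLG, LORICRIN, CRNN, TGM1, TGM3, TGM5, EVPL, PPL, CNFN, CSTA or SBSN. This gave 47 of the 41097 single-symbol probe sets, for 39 of 19775 genes. They comprised 16 S100A genes, 7 SPRR genes, 4 LCE genes, 9 other precursors and plakins, and 3 transglutaminases. A member without a single-symbol probe set was not analysed here.

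The cornified envelope is the cross-linked protein shell that replaces the plasma membrane of squamous cells at the end of their differentiation. Plakins and involucrin form its scaffold beside the desmosomes, transglutaminases join the proteins, and loricrin, small proline-rich (SPRR) and late cornified envelope (LCE) proteins reinforce it. S100 proteins are small EF-hand calcium-binding proteins that act inside cells and, for some, as secreted alarmins. Most of these genes lie together in the epidermal differentiation complex on chromosome 1, and cultured mammary epithelial cells can express several of them.

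ECD read 1076.6, 1011.4 and 1007.2 in controls and 588.9, 599.8 and 542.5 with Ecd siRNA, so the targeted transcript was lower in all 3 samples (log2 change -0.82, SE 0.10, limma adjusted p = 0.000172). A two-sided exact permutation test gave p = 0.1, the smallest that 3 against 3 arrays allow. Signals are MAS5 values on a linear scale, in arbitrary units, and array medians ran from 128.7 to 147.6. The 3'/5' signal ratio of GAPDH, a sign of RNA quality, was 0.974 to 0.980 in controls and 0.974 to 1.003 with Ecd siRNA. Of 10 markers of basal mammary epithelium, 6 had a probe set here and all 6 were above the filter. The cadherin gene CDH3 (log2 change 0.38, limma adjusted p = 0.00733) and the integrin gene ITGB4 (0.29, adjusted p = 0.0183) rose, and KRT5, KRT14, ITGA6 and LAMB3 did not pass. The summed signal of the 6 was 79088.9 to 87321.9 in controls and 85447.6 to 94204.4 with Ecd siRNA. Arrays correlated at 0.977 to 0.981 within groups and at 0.952 to 0.961 between groups.

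The members as a group did not move one way. Periplakin (PPL), cornifelin (CNFN) and S100A4 rose with Ecd siRNA, while transglutaminase 3 (TGM3), SPRR2B and S100A14 fell. Changes are differences of log2(signal + 16), which understate those of dim transcripts, and the words rose and fell are kept for genes where limma's Benjamini-Hochberg adjusted p over all 14603 genes tested was under 0.05. Only genes whose brightest probe set had a mean in the upper 60% of the array (a signal of 84.6) were tested, which left 32 of the 39 members. Of these, 3 rose, 3 fell and 26 did not pass, or 18.8%, against 21.1% of all tested genes. Over all genes 10.1% rose and 11% fell. The members' median log2 change was 0.06, beside 0.008 for all tested genes, and their median absolute change was 0.17 beside 0.21. The groups did not overlap in 11 of the 32, or 34.4%, against 36.4% of all tested genes. In both respects the members' share was near that of the whole table.

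**Figure D1:**
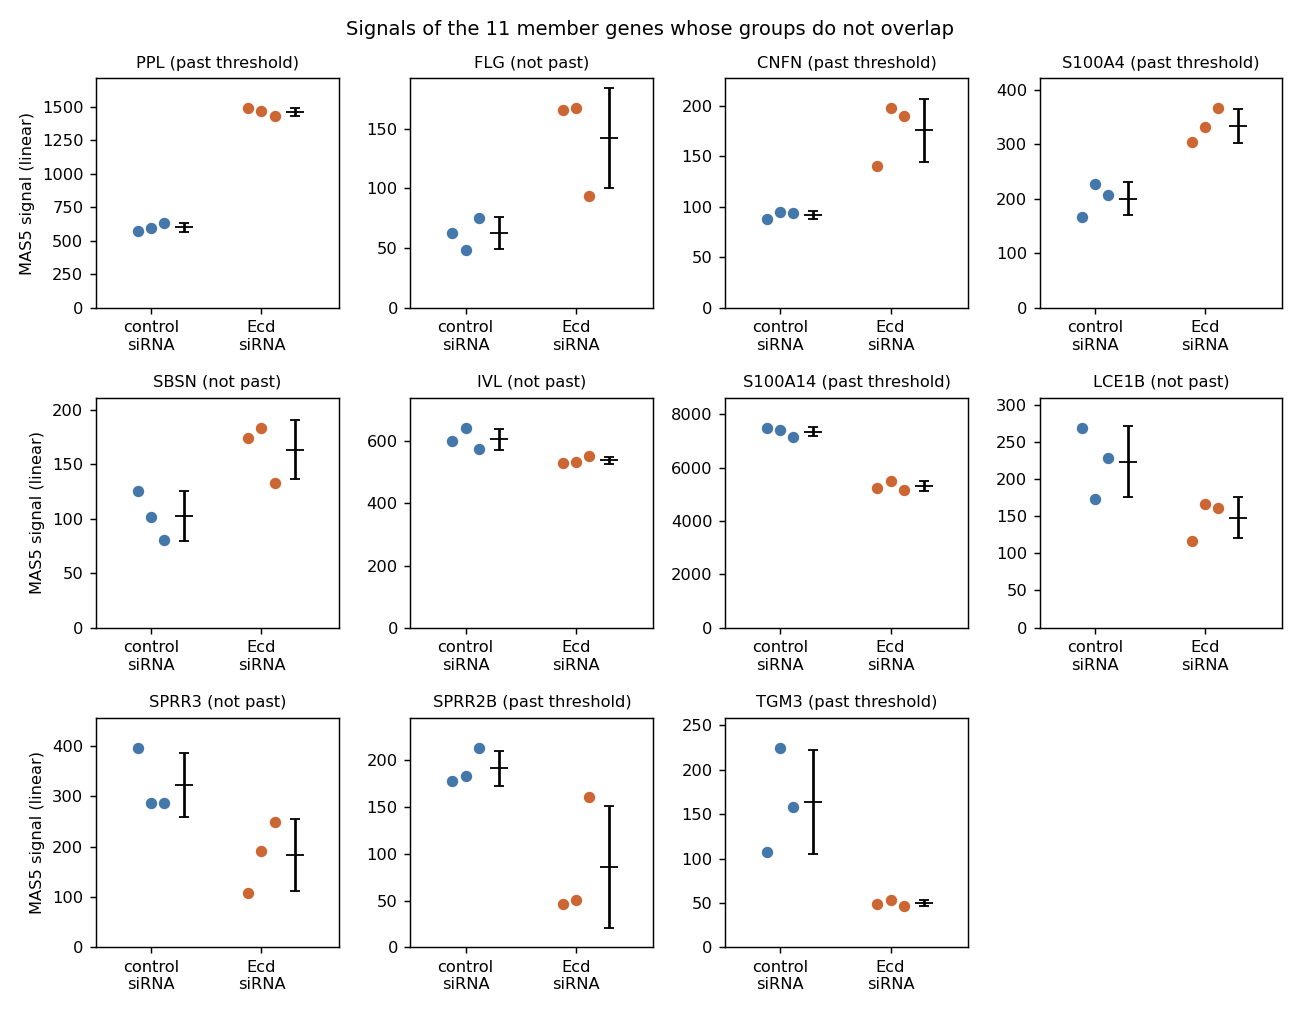
MAS5 signals (linear scale) of the 11 member genes in which the control siRNA arrays (blue, n = 3) and the Ecd siRNA arrays (orange, n = 3) do not overlap, each point 1 array, with mean and SD beside them in black. PPL, CNFN, FLG, SBSN and S100A4 are higher with Ecd siRNA and the other 6 are lower, and 6 of the 11 pass the adjusted threshold.

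Promoter sequence upstream of the start was in the RefSeq table (GRCh38.p14) for 33 of the 39 genes. CSTA, EVPL, LCE1B, PPL, SPRR2C and TGM1 were not among them. The last 100 bases before the start are shown for the other 5 genes past the threshold, for FLG, which has both motifs searched, and for the neighbouring copies S100A7 and S100A7A. Capitals mark the TATA box letters TATAAA and the AP-1 motif TGANTCA, where N is any base.
CNFN, chr19:42390298-42390397, minus strand: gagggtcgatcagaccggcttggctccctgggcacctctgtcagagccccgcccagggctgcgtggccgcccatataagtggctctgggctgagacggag
S100A4, chr1:153545807-153545906, minus strand: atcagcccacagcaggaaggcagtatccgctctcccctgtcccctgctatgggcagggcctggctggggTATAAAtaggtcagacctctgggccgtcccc
S100A14, chr1:153616326-153616425, minus strand: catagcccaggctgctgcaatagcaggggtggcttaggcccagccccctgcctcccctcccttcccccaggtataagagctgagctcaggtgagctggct
SPRR2B, chr1:153071612-153071711, minus strand: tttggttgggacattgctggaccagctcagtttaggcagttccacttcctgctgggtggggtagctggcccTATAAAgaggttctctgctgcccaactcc
TGM3, chr20:2295901-2296000, plus strand: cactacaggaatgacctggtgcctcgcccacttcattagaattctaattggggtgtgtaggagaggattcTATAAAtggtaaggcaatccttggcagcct
FLG, chr1:152325240-152325339, minus strand: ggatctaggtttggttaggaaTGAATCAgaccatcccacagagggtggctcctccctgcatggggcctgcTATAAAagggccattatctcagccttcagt
S100A7, chr1:153460652-153460751, minus strand: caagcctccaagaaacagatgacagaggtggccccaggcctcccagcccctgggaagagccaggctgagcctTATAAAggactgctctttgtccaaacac
S100A7A, chr1:153416420-153416519, plus strand: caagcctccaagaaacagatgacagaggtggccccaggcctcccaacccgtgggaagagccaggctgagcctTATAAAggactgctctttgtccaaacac

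Both motifs were searched on both strands of the 250 bases before the start. TATAAA was present in 17 of 33 member promoters and in 10.7% of all 35116 promoters of the table. In 13 members it began 28 to 31 bases before the start, as in the S100A4, SPRR2B and TGM3 sequences shown. TGANTCA was present in 12 of 33 member promoters against 6.57% of all promoters. It was in 0 of the 2 promoters of genes that rose, in 0 of the 3 of genes that fell, and in 9 of the 23 of tested members that did not pass. A match describes letters only, and no binding was measured. The 100 bases shown for S100A7 and S100A7A are alike at 98 positions.

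Among the scaffold and precursor genes, PPL rose the most. PPL encodes periplakin, a plakin that links the envelope and desmosomes to keratin filaments. Its signals were 572.0, 594.1 and 633.8 in controls and 1486.6, 1467.8 and 1430.6 with Ecd siRNA. The groups were far apart and each was tight, with means of 600.0 ± 31.3 and 1462 ± 28.5 (SD, n = 3 each), a rise of 2.40-fold (log2 change 1.26, SE 0.09, limma adjusted p = 5.0e-06). Over the 17 alternative settings the change stayed between 1.20 and 1.30. EVPL, the gene of its partner envoplakin, had signals of 61.8, 198.6 and 141.9 against 77.5, 183.2 and 116.1. These overlapped across almost their whole range. The 95% interval of the EVPL change, -0.93 to 0.86, was wide but lay under that of PPL, 1.07 to 1.46. Whether the changes of the 2 genes differ was not tested.

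CNFN, which encodes the envelope component cornifelin, had signals of 87.4, 94.8 and 93.6 in controls and of 140.0, 197.2 and 189.2 with Ecd siRNA. All 3 Ecd siRNA arrays were above all controls, at a log2 change of 0.81 (SE 0.24, limma adjusted p = 0.0324). The controls were close to the filter signal of 84.6. The call was lost without the filter (adjusted p = 0.0504) and on leaving out any single array except Ecd siRNA replicate 1, with adjusted p up to 0.117, although the log2 change stayed between 0.73 and 0.96.

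FLG and SBSN were higher in all 3 Ecd siRNA arrays but did not pass. FLG encodes profilaggrin, whose filaggrin units bundle keratin filaments. Its signals were 63.0, 48.8 and 75.5 against 165.5, 167.0 and 93.4, a log2 change of 0.99 (SE 0.32, limma adjusted p = 0.0507). The control mean of 62.4 lay under the filter signal, so FLG entered the test through its Ecd siRNA arrays. It passed under 6 of the 14 alternatives in which it could be tested. The smallest limma adjusted p, 0.026, came when probe sets were averaged. FLG has only 1 probe set, so its own values and change were the same there. SBSN, the suprabasin gene, had 125.7, 101.2 and 80.6 in controls and 173.9, 183.0 and 132.3 with Ecd siRNA (log2 change 0.60, adjusted p = 0.125). The highest control and the lowest Ecd siRNA array were close together.

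IVL and CSTA had slightly lower means with Ecd siRNA and did not pass. IVL encodes involucrin, an early scaffold protein of the envelope. Its signals were 601.8, 642.8 and 574.8 in controls and 531.7, 533.5 and 552.6 with Ecd siRNA. The groups did not overlap, but the log2 change was only -0.16 (SE 0.10, limma adjusted p = 0.324). CSTA, the gene of the cysteine protease inhibitor cystatin A, had 11390.6, 12887.7 and 11167.2 against 11991.4, 10379.0 and 9231.7, and Ecd siRNA replicate 1 lay within the control range. Its log2 change was -0.17 (adjusted p = 0.253), and without that array it was -0.27 and passed (adjusted p = 0.0468).

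Of the cross-linking enzymes, 1 of 3 could be tested, and it fell. TGM3 encodes a transglutaminase that is activated by proteolysis late in squamous differentiation. It had signals of 107.9, 224.5 and 158.4 in controls and of 49.0, 53.2 and 46.6 with Ecd siRNA. The 3 Ecd siRNA arrays were close together and all under the lowest control, and the controls were widely spread. The log2 change was -1.40 (SE 0.32, limma adjusted p = 0.0102). The Ecd siRNA mean of 49.6 lay under the filter signal, so the gene was tested because of its controls, and without control replicate 2 or 3 or with a filter at the upper 40% it was not tested. In the 14 alternatives that tested it the change was between -1.64 and -0.97 and passed. TGM1, the membrane-bound keratinocyte enzyme, and TGM5 were under the filter.

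**Figure D2:**
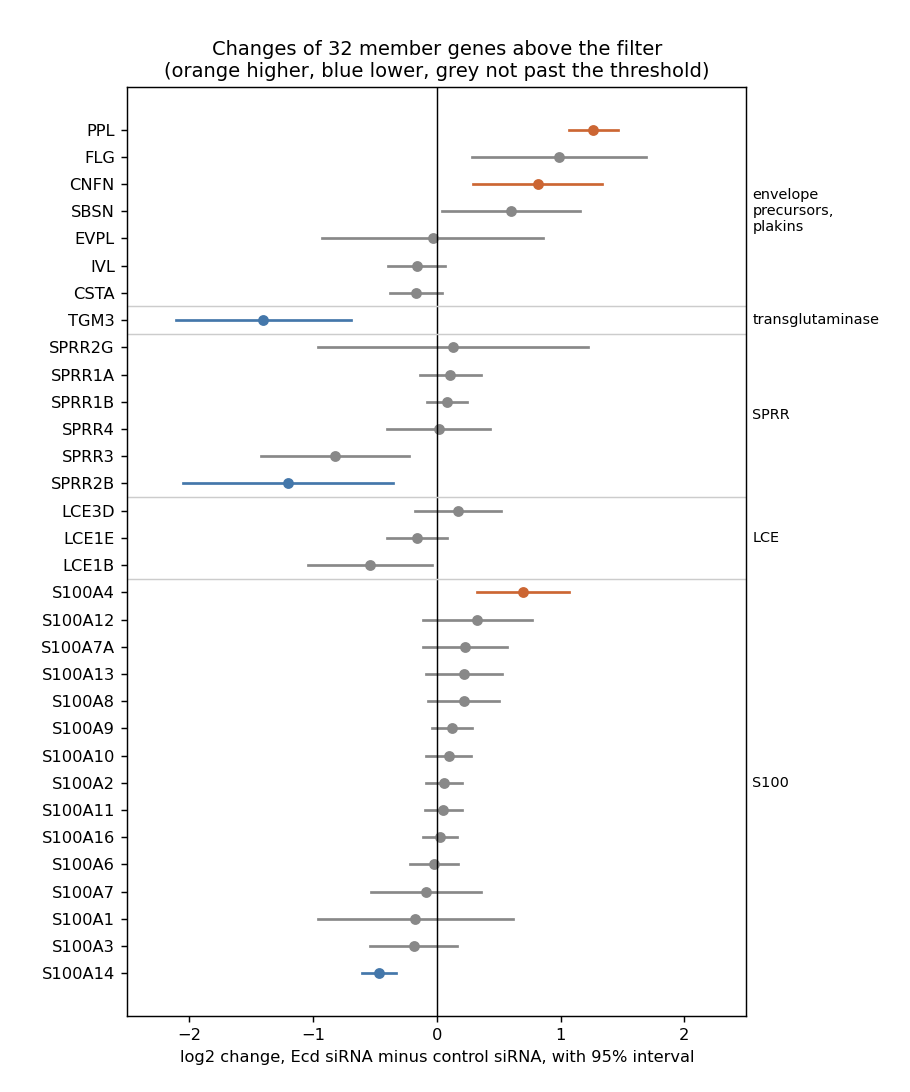
Log2 changes (Ecd siRNA minus control siRNA, x axis) of the 32 member genes above the filter with 95% intervals from limma, grouped by role. PPL, CNFN and S100A4 are higher (orange), TGM3, SPRR2B and S100A14 lower (blue), and the other 26 (grey) did not pass the threshold, with the widest intervals for EVPL, SPRR2G and S100A1.

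Of the 6 tested SPRR genes, SPRR2B fell and 5 did not pass (16.7% called, against 21.1% of all tested genes). SPRR1B, which encodes the bridging protein cornifin, had signals of 7101.1, 7983.6 and 6970.5 in controls and of 8309.7, 7430.2 and 7623.8 with Ecd siRNA. The groups overlapped, with a log2 change of 0.08 and a 95% interval of -0.08 to 0.25. SPRR4 also overlapped, at 653.2, 890.2 and 548.6 against 576.0, 865.1 and 660.7 (interval -0.40 to 0.43). SPRR2G ran from 75.9 to 193.3 in controls and from 69.2 to 349.3 with Ecd siRNA, too scattered for a direction.

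SPRR2B had signals of 177.6, 182.7 and 212.7 in controls and of 45.8, 50.2 and 160.8 with Ecd siRNA. Ecd siRNA replicates 1 and 2 were far below the controls and replicate 3 was near them. Replicates 1 and 2 also lay under the filter signal, so SPRR2B was tested because of its controls and Ecd siRNA replicate 3. The log2 change was -1.20 (SE 0.38, limma adjusted p = 0.0486), just past the threshold. The call was lost in 10 of 16 alternatives, with adjusted p up to 0.143, among them a pseudocount of 1 (0.0507), quantile normalization (0.0558), no filter (0.0859) and each array left out except Ecd siRNA replicate 3. Without that array the change was -1.69 (adjusted p = 0.0029). The probe set ends in _x_at, a class that can bind related transcripts, so the signal may include other SPRR2 copies.

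SPRR3, which encodes the SPRR protein esophagin, had 395.7, 286.5 and 286.0 against 107.6, 190.8 and 249.7, all Ecd siRNA arrays being under all controls. Its log2 change of -0.82 (SE 0.27) did not pass (limma adjusted p = 0.0538), and it passed in 7 of 17 alternatives, with the smallest adjusted p, 0.0196, without Ecd siRNA replicate 3. Its probe set also ends in _x_at, and the second SPRR3 probe set was under the filter at 18.2 to 75.6.

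SPRR1A gave opposite readings on its probe sets. The brighter, an _x_at set, had signals of 1660.3, 2066.4 and 1583.7 in controls and of 1804.3, 2083.0 and 1815.0 with Ecd siRNA, a log2 change of 0.11 (limma adjusted p = 0.565). The dimmer one had 146.4, 181.1 and 111.3 against 49.3, 21.0 and 90.9. Its Ecd siRNA mean of 53.7 lay under the filter signal, so it was tested because of its controls. Its groups did not overlap, and its log2 change was -1.33. When every probe set was tested on its own this missed the threshold (limma adjusted p = 0.0504), and where probe sets without such endings stood for the gene it passed (adjusted p = 0.0421). The direction for SPRR1A therefore depended on the probe set.

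Of the LCE genes, whose products are added to the envelope late, 3 of 4 were tested and 0 passed, against 21.1% of all tested genes. LCE1B had 268.6, 172.9 and 229.0 in controls and 116.4, 166.7 and 161.2 with Ecd siRNA, without overlap (log2 change -0.54, SE 0.23, adjusted p = 0.125). The lowest control and the highest Ecd siRNA array were almost equal. LCE1E changed by -0.16 (95% interval -0.40 to 0.08) and LCE3D by 0.17 (-0.17 to 0.52), and the groups of each overlapped.

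Among the 15 tested S100 genes, S100A14 fell, S100A4 rose and 13 did not pass (13.3% called, against 21.1% of all tested genes). S100A14 is an epithelial member of the family that is found at cell borders. It had signals of 7486.2, 7407.9 and 7165.2 in controls and of 5258.4, 5507.6 and 5173.9 with Ecd siRNA. Every Ecd siRNA array was far under every control, with means of 7353 ± 167 and 5313 ± 173 (SD, n = 3 each). This is a fall of 1.38-fold (log2 change -0.47, SE 0.06, limma adjusted p = 0.000346). It passed in all 17 alternatives, at -0.49 to -0.45.

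S100A4, known as metastasin, binds non-muscle myosin and is also used as a fibroblast marker. Like CNFN, it was read by 1 probe set ending in _s_at, a shared ending, so related transcripts may add to the signal. Its signals were 167.5, 226.4 and 207.5 in controls and 304.2, 332.1 and 366.2 with Ecd siRNA. The groups were clearly apart, with means of 200.5 ± 30.1 and 334.2 ± 31.1 (SD, n = 3 each) and a log2 change of 0.70 (SE 0.17, limma adjusted p = 0.0132). It missed the threshold when Ecd siRNA replicate 3 was left out (0.63, adjusted p = 0.0527). Of 10 fibroblast markers, 5 were above the filter and 2 of these, FAP and COL1A1, rose, while DCN, COL1A2 and THY1 did not pass and PDGFRA, PDGFRB, LUM, COL3A1 and COL6A3 were under the filter. The summed signal of the 10 was 4153.0 to 4814.3 in controls and 7017.3 to 7945.1 with Ecd siRNA. Most of that sum was FAP, with means of 2609.6 in controls and 5334.2 with Ecd siRNA. THY1 (log2 change -0.32) and COL1A2 (-0.17) were lower in mean, and DCN (0.11) was higher. In bulk RNA a change in the share of cells of a type and a change in RNA per cell cannot be told apart, and the part of these markers in the S100A4 result was not tested.

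The brightest S100 genes did not pass, and the intervals of their changes were narrow. On every array 7 of them, S100A2, S100A6, S100A8, S100A9, S100A10, S100A11 and S100A16, were among the top 1% of probe sets, with signals of 11891.7 to 27167.8. Their log2 changes ran from -0.03 to 0.22, and their 95% intervals lay between -0.22 and 0.51. S100A2, an epithelial S100 gene, had 25398.5, 25390.1 and 22699.0 against 27167.8, 25045.0 and 24330.1, with an interval of -0.09 to 0.21. The highest signal of any probe set was 27987, so S100A2 was near the top of the scale, and whether its changes are compressed there was not tested. S100A6, the calcyclin gene, had 20927.5, 22087.9 and 18410.3 against 22137.9, 20238.0 and 18010.4, with complete overlap.

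The calprotectin subunit genes S100A8 and S100A9, whose products form a secreted antimicrobial complex, were a little higher in mean without passing. S100A8 had signals of 15950.5, 17534.3 and 12577.5 in controls and of 21054.0, 16664.6 and 15811.5 with Ecd siRNA (log2 change 0.22, limma adjusted p = 0.283). S100A9 had 15207.3, 14031.4 and 13442.4 against 16713.8, 15525.2 and 14341.3 (0.13, adjusted p = 0.273). Both groups overlapped in both genes. The second S100A8 probe set went the other way and scattered more, from 1111.6 to 1837.2 in controls and from 485.7 to 2167.5 with Ecd siRNA (log2 change -0.45, SE 0.43, adjusted p = 0.555). These genes are also known from myeloid cells. Of the 6 myeloid markers above the filter 0 passed, PTPRC, CD14 and AIF1 were under the filter, and the summed signal of the 9 markers with a probe set was 911.5 to 1147.2 in controls and 943.5 to 957.3 with Ecd siRNA.

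Array by array, the bright S100 genes moved together. Control replicate 3 was the lowest control in all 7 genes and the lowest of all 6 arrays in 6 of them, and Ecd siRNA replicate 1 was the highest array in 5. In the deposited scaling 6 of the 7 had a higher mean with Ecd siRNA. After quantile normalization 4 did, with changes of -0.08 to 0.20, and without control replicate 3 also 4, at -0.10 to 0.09. Among the basal markers, KRT5, KRT14, LAMB3, CDH3 and ITGB4 also had control replicate 3 as their lowest control, and ITGA6 did not. A low control replicate 3 was therefore not particular to S100 genes, and its cause was not tested.

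**Figure D3:**
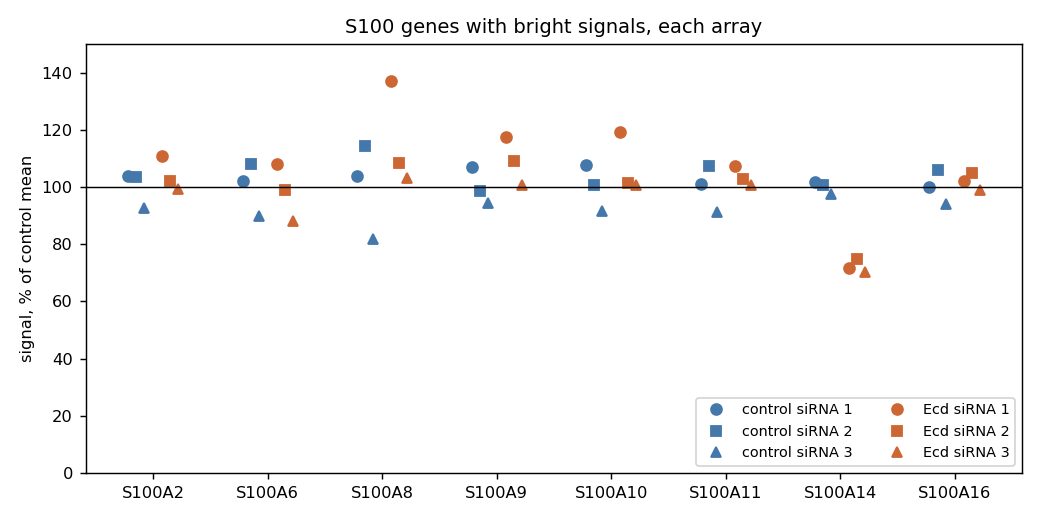
Signals of the 7 brightest S100 genes and of S100A14 on each array, as a percentage of the gene's mean over the 3 control siRNA arrays (y axis from 0), with blue for control siRNA, orange for Ecd siRNA and the marker shape giving the replicate. The 3 Ecd siRNA arrays of S100A14 lie under its 3 controls, while in the other 7 genes the groups overlap.

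The other S100 genes also did not pass. Psoriasin (S100A7) had 960.9, 1362.8 and 882.8 in controls and 1053.1, 1248.6 and 731.4 with Ecd siRNA, and its close copy S100A7A had 345.0, 402.2 and 277.9 against 406.3, 412.5 and 379.2. The groups of both overlapped, and signals of such similar copies are uncertain, since a probe set may bind both. S100A13, which takes part in export of proteins without a signal peptide, had 3448.3, 4102.0 and 2858.1 against 4686.3, 4005.2 and 3413.1, with overlap. S100A12, another calgranulin gene, had 136.2, 189.7 and 163.0 against 226.6, 180.2 and 217.1 (log2 change 0.33, adjusted p = 0.298). S100A3 changed by -0.19 (95% interval -0.54 to 0.16), and S100A1, scattered from 93.7 to 235.4 in controls alone, by -0.17 (-0.96 to 0.61).

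Dim members varied more between samples than bright ones. The 10 members with a mean signal under 250 had a median residual SD of 0.345 on the log2 scale, and the 22 brighter ones 0.15. That division was chosen after the values were seen, and 3 genes passed on each side of it. The 7 untested members, CRNN, LCE2B, LORICRIN, S100A5, SPRR2C, TGM1 and TGM5, had signals of 10.8 to 206.9. The deposited table has no detection calls, so no level is drawn from them.

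Tested probe set by probe set, 38 of the 47 were above the filter, and 3 rose (PPL, CNFN and S100A4) and 2 fell (S100A14 and TGM3). Across all 27015 single-symbol probe sets above the filter 16.9% passed, 8.3% higher and 8.62% lower. SPRR2B missed the threshold there (limma adjusted p = 0.0603). Of the 6 genes with 2 probe sets above the filter, LCE1E, S100A6 and S100A10 had both on the same side of 0, and S100A8, S100A13 and SPRR1A had them on opposite sides.

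Along chromosome 1, the genes that passed did not lie side by side. The 26 tested members there are in the order S100A10, S100A11, FLG, LCE, IVL, SPRR, then the other S100 genes. Of these 26, 1 rose and 2 fell, or 11.5%, against 21.1% of all tested genes. S100A14 fell between S100A16 and S100A13, whose log2 changes were 0.03 and 0.22. S100A4 rose, and the nearest tested genes were S100A6 (-0.03) and S100A3 (-0.19). SPRR2B fell next to SPRR1B (0.08) and SPRR2G (0.13) among the tested genes. PPL, CNFN and TGM3 are 3 of the 6 tested members on other chromosomes, or 50%. Whether these shares differ from each other or from that of all genes was not tested. Of the complex's other genes 4 were tested and 0 passed. PGLYRP4, a peptidoglycan recognition protein gene, was at 0.37 (adjusted p = 0.261) and LELP1 at 0.28 (adjusted p = 0.775).

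**Figure D4:**
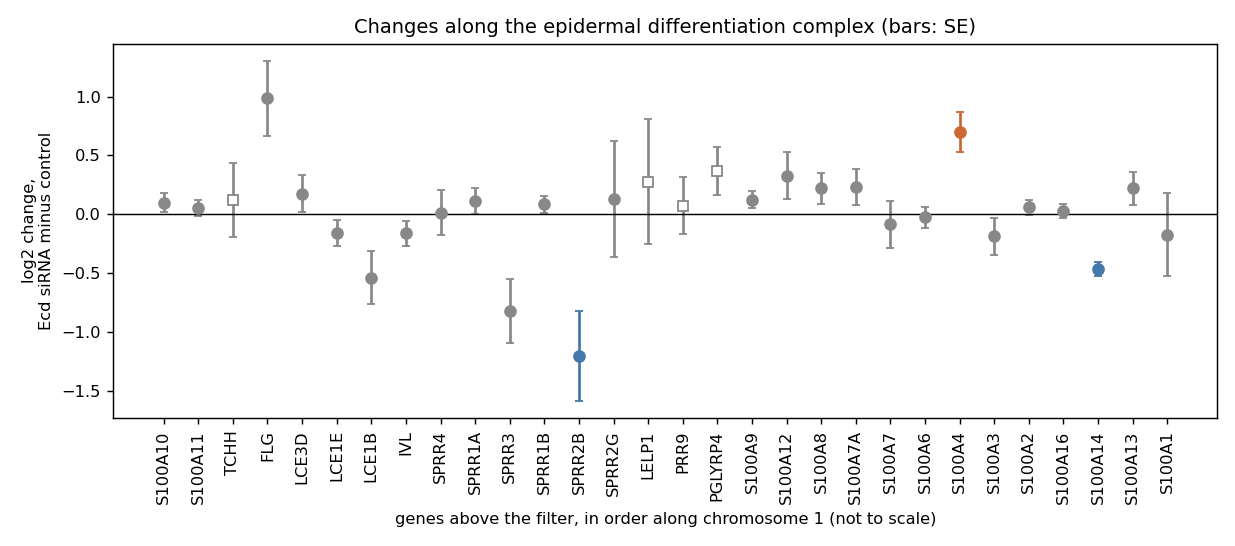
Log2 changes (Ecd siRNA minus control siRNA, y axis, bars 1 SE) of the tested genes of the epidermal differentiation complex in their order along chromosome 1, not to scale, with members as filled circles and other genes as open squares. S100A4 (orange) rose and S100A14 and SPRR2B (blue) fell between neighbours that did not pass.

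Related gene lists were counted beside the whole table, in which 10.1% of tested genes rose, 11% fell and the median log2 change was 0.008. Among 20 tested regulators of squamous differentiation there were 6 rises and 1 fall, so 35% were called against 21.1% of all tested genes, and the median was 0.25. Whether any list differs from other genes was not tested. The leucine zipper factor gene MAF had 573.3, 549.5 and 670.1 in controls and 1276.8, 1294.6 and 1487.8 with Ecd siRNA (log2 change 1.16, limma adjusted p = 3.87e-05). The nuclear receptor gene RORA changed by 1.19 and the grainyhead factor gene GRHL1 by 0.97. With probe sets averaged RORA was at 0.71, and MAF was at 0.55 in a probe set without a shared ending, both past the threshold. FOSL1, which encodes the AP-1 subunit FRA1, fell, from 2409.6, 2531.9 and 2364.8 to 1060.9, 1181.4 and 1075.1 (-1.13, adjusted p = 5.55e-06). For these 4 genes all Ecd siRNA arrays lay on 1 side of the controls. Without control siRNA replicate 1 there were 2 falls, the other being the vitamin D receptor gene VDR, at -0.54 (adjusted p = 0.0254) there and -0.40 (adjusted p = 0.0755) with all arrays.

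Desmosome genes, whose products are built into the envelope's edge, rose in 4 of 10 tested members, with 0 falls and a median of 0.21. That is 40% called, against 21.1% of all tested genes. The median absolute log2 change was 0.21 in both. The median residual SD was 0.06 for the desmosome genes and 0.16 for all tested genes, so smaller changes could pass in this list. CDSN, DSG1 and DSC1 of this list were under the filter and not tested. DSG3 (desmoglein 3) changed by 0.50, DSC2 (desmocollin 2) by 0.53 (0.81 with its probe sets averaged), JUP (plakoglobin) by 0.32 and DSP (desmoplakin) by 0.22. The DSP call (limma adjusted p = 0.0335) was lost in 9 of 17 alternatives, with adjusted p up to 0.217. Of 6 tested suprabasal and stress keratin genes, KRT16 rose, from 2243 ± 23.3 to 4978 ± 430.8 (SD, n = 3 each), and 5 did not pass (16.7% called), the nearest being KRT9 at 0.33 (adjusted p = 0.0885).

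Other transglutaminase and envelope substrate genes rose in 3 of 7 tested, with 0 falls and a median of 0.48. That is 42.9% called, against 21.1% of all tested genes. CASP14, the protease that helps process filaggrin, had 383.2, 349.6 and 306.7 in controls and 702.2, 1229.2 and 819.7 with Ecd siRNA (log2 change 1.33, limma adjusted p = 0.000601). PI3, the gene of the elastase inhibitor elafin, changed by 0.68, and TGM2, the tissue transglutaminase gene, by 0.48. TGM2 rose while TGM3 fell. The TGM2 call was lost when its probe sets were averaged (0.36, adjusted p = 0.133). Barrier lipid genes gave 1 rise and 0 falls among 8 tested (12.5%, against 21.1% of all tested genes), with a median of -0.05. That was SMPD1, the acid sphingomyelinase gene (0.50, adjusted p = 0.00673, but 0.08 and adjusted p = 0.808 with its probe sets averaged), and the lipid transporter gene ABCA12 was at 0.26 (adjusted p = 0.0959). This list gave 0 rises and 1 fall both with probe sets averaged and with probe sets without a shared ending preferred. The gene that fell was UGCG, which encodes glucosylceramide synthase, at -0.31 (adjusted p = 0.0124) and -0.23 (adjusted p = 0.0413), against -0.27 (adjusted p = 0.101) in its brightest probe set.

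Partners and receptors of S100 proteins fell in 2 of 10 tested members and rose in 0, with a median of 0.09. The 20% called was near the 21.1% of all tested genes, and the falls numbered 0 to 2 over the 17 alternatives. Without Ecd siRNA replicate 1, AHNAK rose (0.25, adjusted p = 0.028, against 0.14 and adjusted p = 0.355 with all arrays). CACYBP, the calcyclin-binding protein gene, had 4042.8, 3793.1 and 4100.8 in controls and 1435.0, 1461.1 and 1560.7 with Ecd siRNA (log2 change -1.41, limma adjusted p = 6.7e-07). That value came from a probe set with a shared ending, and in a probe set without one it was -0.27 (adjusted p = 0.55). The annexin gene ANXA6 was at -0.70 (adjusted p = 0.025), a call lost in 8 of 17 alternatives, with -0.25 (adjusted p = 0.601) in a probe set without such an ending. S100A6, whose protein CACYBP binds, was at -0.03.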

How the data were processed

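Each array held RNA of 1 sample. The deposited values are linear intensities, 1 for each probe set, made with MAS5 per the submitters' processing notes. The version of MAS5 and its target for scaling are not stated in those notes. The mean between percentiles 2 and 98 was 499.6 to 499.8 on every array, which hides any shift common to all transcripts. Groups and replicate numbers came from the sample titles. Probe sets were named from GEO's platform annotation, and those with several symbols were left out (0 of them named a member).

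Signals were converted to log2(signal + 16). Each gene was read by its brightest single-symbol probe set and tested if that lay in the upper 60% of probe sets by mean. limma 3.58.1 (lmFit, eBayes with trend, no covariates) under R 4.3.3 compared the groups, and p-values were adjusted over all 14603 genes. The fit was tested on simulated data. Any member above the filter could be named. Of each related list, up to 4 genes with the smallest adjusted p past the threshold were named, or the 2 with the smallest p where fewer than 2 passed. Members and lists were chosen with earlier results of these data known. The number of arrays limits the precision. No scan date was among the labels. The 17 alternative settings changed the pseudocount, normalization, filter, choice of probe set, trend, array weights or replicate block, or left out an array.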

Additional observations from a re-analysis of the deposited data

How the results depend on the processing

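PPL, S100A14 and ECD kept direction and call in all 17 alternatives, and TGM3 in the 14 that tested it. The numbers of members that rose and fell (3 and 3) were 2 to 3 and 1 to 4 on leaving out 1 array, and for the 5 member probe sets past the threshold (3 higher, 2 lower) 1 to 3 and 1 to 4. TGM3 was not tested without control replicate 2 or 3, where S100A14 alone fell. With a common median 4 member probe sets fell, and with the filter at the upper 40% 1 did. Replicate numbers paired the arrays weakly at most. Correlations of deviations were -0.01, 0.08 and 0.15 for numbers 1 to 3, and 4 of 6 arrays were closest to their own number. With the replicate block 3 members rose and 3 fell, and 1582 and 1695 of all genes, against 1468 and 1607. With the block VDR also fell (-0.40, adjusted p = 0.0398) and JUNB rose (0.29, adjusted p = 0.021). This made 7 rises and 2 falls among the differentiation regulators. CST6, of the envelope substrate list, also rose with the block (0.54, adjusted p = 0.0283).

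Directions of values not past the threshold reversed as follows, and the cause was not tested. Quantile normalization put S100A11 at -0.0065 and S100A16 at -0.0035. The mean of probe sets put S100A7A at -0.17, S100A8 at -0.11 and SPRR1A at -0.61. Probe sets without _s, _x or _a put S100A8 at -0.45 and SPRR1A at -1.33, and array weights put EVPL at 0.19. Leaving out 1 array gave ranges of -0.51 to 0.090 for S100A1, -0.14 to 0.20 for SPRR4, -0.37 to 0.77 for LELP1, -0.45 to 0.28 for EVPL, -0.10 to 0.052 for S100A6, -0.25 to 0.13 for S100A7, -0.010 to 0.11 for S100A11, -0.014 to 0.070 for S100A16 and -0.41 to 0.64 for SPRR2G. The residual SD on the log2 scale was 0.66 for EVPL, 0.58 for S100A1 and 0.88 for SPRR2G. Over the 10 members with a mean signal under 250 the median was 0.345 and the lowest 0.18, for CNFN. SPRR2B, which was called, had 0.61.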
